A study of Homo sapiens with 27 samples.

Results

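NRF2 target genes were followed in U2OS cells, a human osteosarcoma line, during cell expansion and after depletion of the MMP-2 protease. The 9 genes (GCLC, GCLM, SLC7A11, TXNRD1, SRXN1, NQO1, EPHX1, AKR1C1 and HMOX1) were taken by symbol from the 55882 gene symbols counted in each library, and all 9 passed the filter on low counts in every comparison. The study asked which genes depend on MMP-2, which cleaves the N-terminal tail of histone H3, as cells grow past confluence. Poly(A) RNA was sequenced from 27 libraries, with 3 for every line and day: day −2 (subconfluent), day 0 (confluent) and day +2 (overconfluent). The control line carried the blank pLKO.1 vector and is titled WT in the labels, whereas the MMP2sh1 and MMP2sh2 lines each carried a different shRNA, a short hairpin RNA, against MMP2. All 3 lines were made by lentiviral transduction and puromycin selection, so that no untransduced cells were compared. The paper describes the libraries as independent biological replicates, although the labels do not say that they are separate cultures.

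NRF2, the product of NFE2L2, is a transcription factor that is held low in unstressed cells because KEAP1, with the CUL3 ubiquitin ligase, marks it for degradation. Oxidants and electrophiles modify KEAP1, and NRF2 then accumulates, pairs with a small MAF protein and binds antioxidant response elements near genes for glutathione synthesis, thioredoxin recycling, detoxification and heme breakdown. BACH1, a repressor, competes for the same elements, and several of these genes, SLC7A11 and HMOX1 among them, also answer to other factors. NRF2 is mainly controlled as a protein, which RNA-Seq does not measure.

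The counted reads per library ranged from 33580129 to 59374327, and mitochondrial transcripts took 4.16% to 7.15% of them. MMP2 itself was at 222, 226.2 and 248 CPM (reads of a gene per 1000000 counted reads, scaled with TMM factors) in the control at day −2, at 34.0, 39.5 and 46.8 CPM in MMP2sh1 and at 136, 139.8 and 155 CPM in MMP2sh2. MMP2 was lower in both lines at each day, with log2 fold changes between −2.53 and −2.34 for the MMP2sh1 libraries and between −1.06 and −0.70 for those of MMP2sh2. Of 10 osteoblast and mesenchyme markers, 6 had a mean of at least 1 CPM over all libraries, ALPL among them at 0.397 to 6.98 CPM. The list summed to 1881 to 2505 CPM, led by COL1A1 and VIM, while IBSP had no read and SP7, COL1A2 and BGLAP stayed under 1 CPM. Markers of epithelium summed to 26.7 to 57.2 CPM, mostly from CLDN4 (21.5 to 51.5 CPM) and next from EPCAM (3.11 to 6.73 CPM). Those of endothelium summed to 2.87 to 6.73 CPM and those of blood cells to 0.155 to 1.68 CPM. In such bulk samples, fewer cells that express a gene and less RNA per cell cannot be told apart.

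Because the antioxidant response element links these genes, its core letters TGACNNNGC (N, any base) were searched on both strands of the windows from 1000 bases before to 100 bases after the start of each gene's canonical transcript, on GRCh37. They were found in 4 of the 9 genes, and in 7115 of 19894 such windows of protein-coding genes (35.8%), so that a match is common and is only a description of the sequence. Each match is shown 5′ to 3′ on its own strand, with 10 flanking bases on either side and the core in capitals.
GCLC, chr6:53410751-53410779, plus strand, middle of the core 866 bases before the start site: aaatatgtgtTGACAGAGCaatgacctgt
GCLM, chr1:94375002-94375030, plus strand, 30 bases before: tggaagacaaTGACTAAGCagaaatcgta
NQO1, chr16:69760900-69760928, minus strand, 451 bases before: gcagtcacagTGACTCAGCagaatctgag
TXNRD1, chr12:104609448-104609476, plus strand, 95 bases before: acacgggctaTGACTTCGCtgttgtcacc
TXNRD1, chr12:104609539-104609567, minus strand, 4 bases before: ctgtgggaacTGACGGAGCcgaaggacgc
The NQO1 match overlaps the letters TGANTCA of an AP-1 site, which 21.2% of all windows hold, and the other 4 matches do not. The windows of HMOX1, SRXN1, EPHX1, SLC7A11 and AKR1C1 do not hold the core letters TGACNNNGC.

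The positions below are those of GENCODE on GRCh37, the build that the authors name hg19. GCLC lies on chromosome 6 (53362139 to 53481768, minus strand), GCLM on chromosome 1 (94350755 to 94375012, minus strand) and SLC7A11 on chromosome 4 (139085251 to 139163503, minus strand). TXNRD1 lies on chromosome 12 (104609557 to 104744085, plus strand) and SRXN1 on chromosome 20 (627259 to 633844, minus strand). NQO1 is on chromosome 16 (69740899 to 69760571, minus strand), EPHX1 on chromosome 1 (225997826 to 226033264, plus strand), AKR1C1 on chromosome 10 (5005445 to 5025475, plus strand) and HMOX1 on chromosome 22 (35776354 to 35790207, plus strand). Reads were counted over exons without strand, and those that fit more than 1 gene were discarded. In the GENCODE annotation used here, 2292 of the 2528 exonic bases of SRXN1 are shared with another gene (ENSG00000270299). That gene was not matched to a row of the count files, whose annotation may differ, so whether SRXN1 lost reads was not tested and its 65 to 409 reads per library are an uncertain measure of its level. SLC7A11 shares 865 of 9645 exonic bases with SLC7A11-AS1, an antisense gene with 0 to 33 reads per library, and smaller stretches of NQO1 (575 bases), GCLC (834) and EPHX1 (28) are shared with other genes.

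To set the 9 genes beside each other, their levels were divided by the length of the canonical transcript. Reads were counted over all exons, whose joined length exceeds the canonical one unevenly. It was 8618 against 3785 bases for GCLC, 6710 against 3860 for TXNRD1, 2306 against 1554 for HMOX1 and 2971 against 2521 for NQO1. For SLC7A11 both were 9645. The orders below therefore hold for the canonical length only, and the SDs do not cover this choice. In the control at day −2, TXNRD1 was highest at 77.2 ± 1.79 CPM per kilobase (SD, n = 3), followed by NQO1 at 46.9 ± 1.08, HMOX1 at 43.2 ± 1.89 and EPHX1 at 26.0 ± 1.74. Lower per-kilobase levels were found for GCLC (16.2 ± 0.573), GCLM (10.2 ± 0.716), SLC7A11 (5.55 ± 0.156) and SRXN1 (2.68 ± 0.295), and AKR1C1 was at 0.0795 ± 0.00363. At day +2 the order had changed, with HMOX1 highest at 43.7 ± 3.94 CPM per kilobase, NQO1 at 35.1 ± 1.66, EPHX1 at 29.9 ± 3.20 and TXNRD1 at 26.3 ± 0.206. Of the neighbours in the control's orders at days −2, 0 and +2, those that differed by less than the sum of their SDs were HMOX1 and EPHX1 at day 0 (35.1 ± 2.56 and 31.3 ± 1.94).

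**Figure D1:**
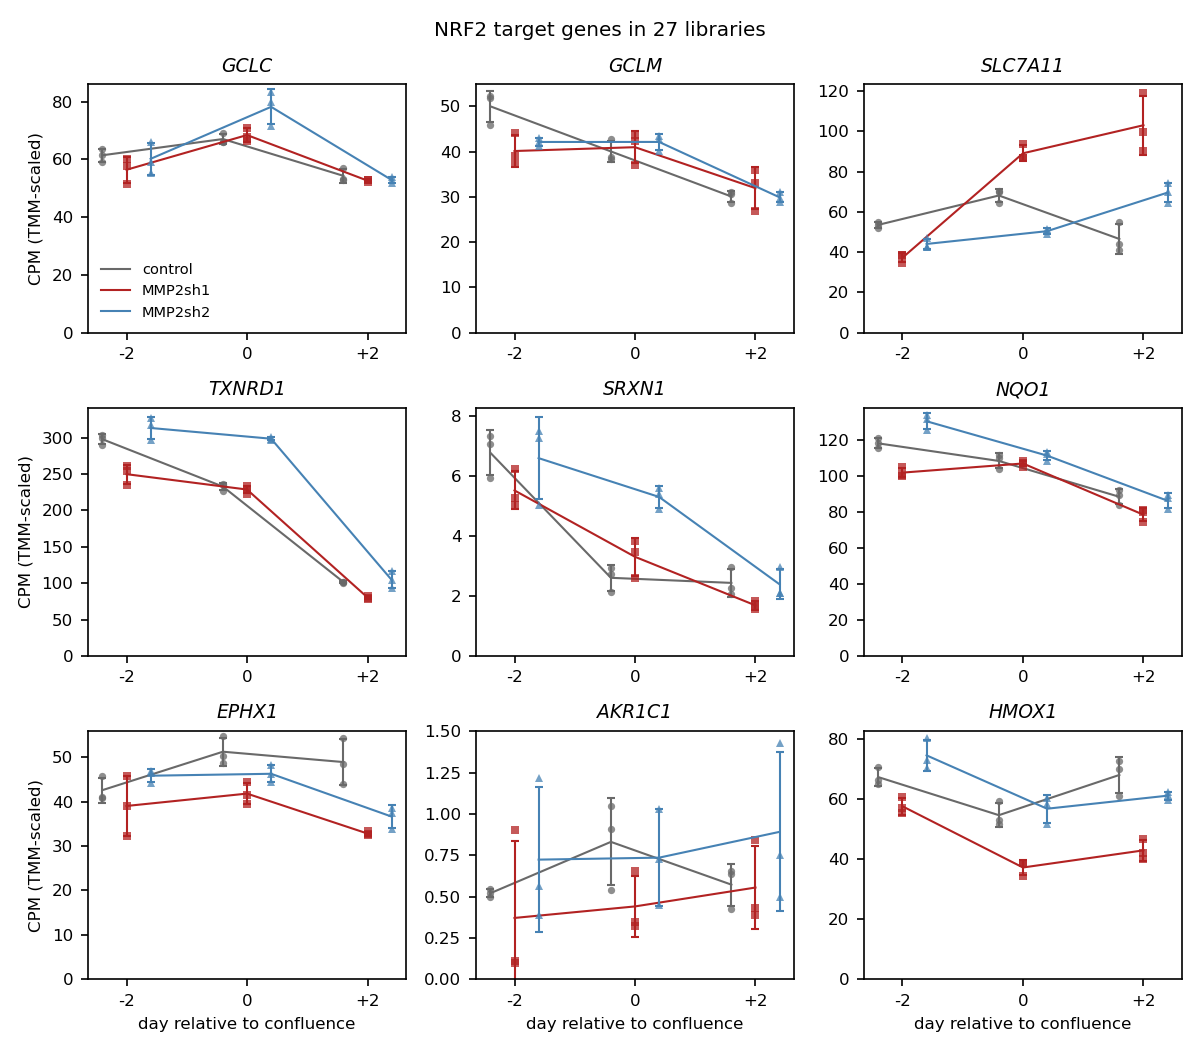
Level of each of the 9 genes (y axis, CPM with TMM scaling, from 0) at days −2, 0 and +2 (x axis) in the control (grey circles), MMP2sh1 (red squares) and MMP2sh2 (blue triangles). Points are single libraries, 3 per group, set side by side by line, bars are the SD about the mean (cut off at 0 for AKR1C1), and lines join the means. TXNRD1 falls in all 3 lines, SLC7A11 separates the lines in opposite directions at days −2 and +2, and HMOX1 is lowest in MMP2sh1 at each day.

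To examine the genes during cell expansion, day +2 was compared with day −2 within each line. Log2 fold changes are given ± their standard error. In the control, 6 of the 9 genes fell and 1 rose (edgeR's quasi-likelihood test, Benjamini-Hochberg adjusted p under 0.05). Of all 19099 genes tested, 56.8% were called, 28.6% as lower and 28.1% as higher. The largest falls were those of TXNRD1 and SRXN1, GCLM, NQO1, SLC7A11 and GCLC fell less, and EPHX1 rose. In MMP2sh1, 6 genes fell and 1 rose (54.9% of all genes called, 27.7% lower and 27.3% higher), and in MMP2sh2 7 fell and 1 rose (54.7%, 27.1% lower and 27.7% higher). The riser in both shRNA lines was SLC7A11, and EPHX1 fell there. Libraries of day +2 lay wholly above or below those of day −2 for 62.0% of all genes tested in the control. The share was 60.8% in MMP2sh1 and 60.7% in MMP2sh2. The median log2 fold change of the 9 genes was −0.20 in the control, −0.33 in MMP2sh1 and −0.32 in MMP2sh2, against medians of 0.03, 0.04 and 0.05 over all genes tested. Without control replicate 1 of day −2 or replicate 3 of day +2, the control count was 4 in place of 7.

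Within the control, GCLM and TXNRD1 were called as falling in both intervals, SRXN1 and HMOX1 in the first, and NQO1, GCLC and SLC7A11 in the second. In the first interval NQO1 (log2 −0.12, standard error 0.05, adjusted p = 0.056) and GCLC (log2 0.13, standard error 0.05, adjusted p = 0.061) narrowly missed the threshold. NQO1 passed there with DESeq2 (adjusted p = 0.040), and GCLC with at least 10 counts in every library (adjusted p = 0.035). From day −2 to day 0, 4 of the 9 genes fell and 2 rose (35.5% of all genes called, 19.1% lower and 16.4% higher), and from day 0 to day +2, 5 fell and 1 rose (41.4%, 20.1% lower and 21.3% higher). SRXN1 fell by 1.38 on the log2 scale in the first interval, and its second-interval difference of −0.07 (standard error 0.24, adjusted p = 0.85) did not pass the test. TXNRD1 fell by 0.35 in the first interval and by 1.18 in the second. HMOX1 fell by 0.29 up to confluence and rose by 0.34 after it, whereas SLC7A11 rose by 0.35 and then fell by 0.53.

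**Figure D2:**
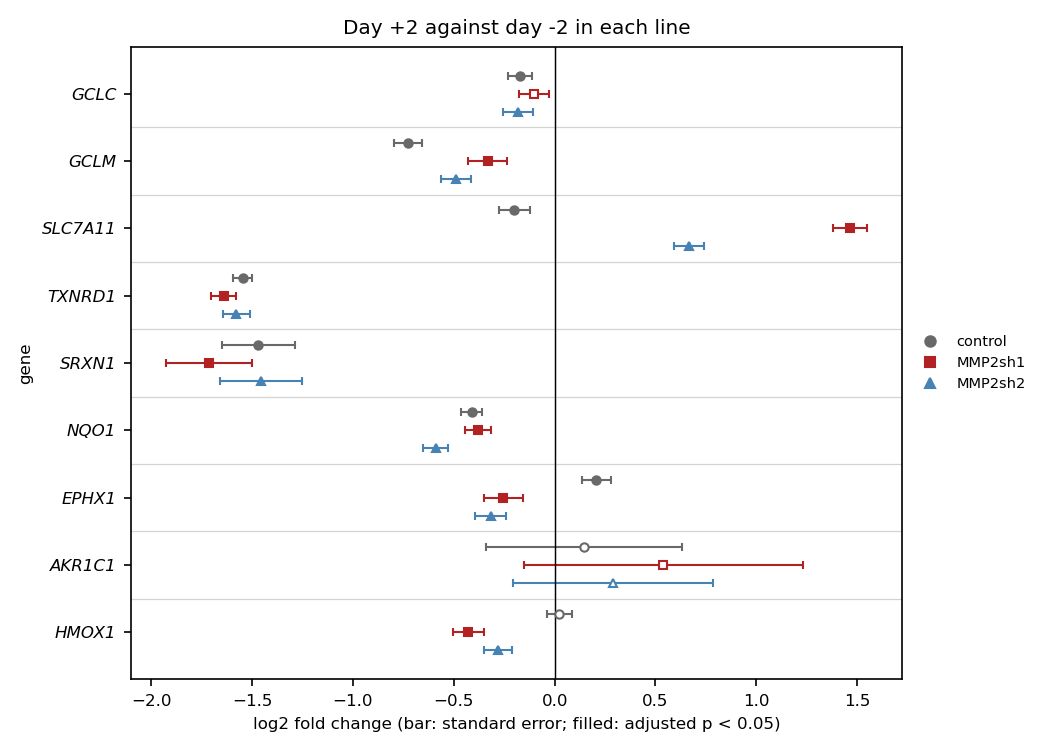
Log2 fold change from day −2 to day +2 (x axis) for each of the 9 genes (y axis) in the control (grey circles), MMP2sh1 (red squares) and MMP2sh2 (blue triangles). Bars are standard errors, and filled symbols mark an adjusted p under 0.05. TXNRD1 and SRXN1 sit between −1.71 and −1.46 in all 3 lines, while SLC7A11 is at −0.20 in the control, 1.46 in MMP2sh1 and 0.67 in MMP2sh2.

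To examine the lines depleted of MMP-2, each shRNA line was compared with the control at each day. The control and each shRNA were represented by a single stable line. Effects of depletion therefore cannot be told apart from other differences between the lines. The p-values measure the spread of libraries within a line, not between separately made lines. The control libraries of a day served for both shRNA lines, so the results of MMP2sh1 and MMP2sh2 are not independent. In MMP2sh1, 5 of the 9 genes (NQO1, HMOX1, GCLM, TXNRD1 and SLC7A11) were lower than in the control at day −2 and none was higher, beside 11.6% of all genes called (6.14% lower and 5.42% higher). At day 0, 1 was higher and 2 were lower (16.8%, 8.26% higher and 8.58% lower), and at day +2, 1 was higher and 3 were lower (14.8%, 7.68% higher and 7.11% lower). In MMP2sh2, 2 were lower at day −2 (11.0% of all genes called, 6.33% lower and 4.71% higher), 3 were higher and 1 lower at day 0 (12.9%, 7.07% higher and 5.81% lower), and 1 was higher and 1 lower at day +2 (6.32%, 2.89% higher and 3.43% lower). The median log2 fold change of the 9 genes against control was −0.25, −0.02 and −0.18 in MMP2sh1 at days −2, 0 and +2, and 0.07, 0.04 and −0.03 in MMP2sh2, with medians over all genes within 0.01 of 0. The shRNA libraries lay wholly above or wholly below the control's for 21.7% to 31.3% of all genes tested in a comparison. Such separation is therefore common. SLC7A11 was the gene called in all 6 comparisons. At day −2, the MMP2sh1 count was 3 in place of 5 without control replicate 2 or MMP2sh1 replicate 2. The MMP2sh2 count at that day was 1 in place of 2 without control replicate 3 or MMP2sh2 replicate 1, and neither gene was called by edgeR without control replicate 1.

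**Figure D3:**
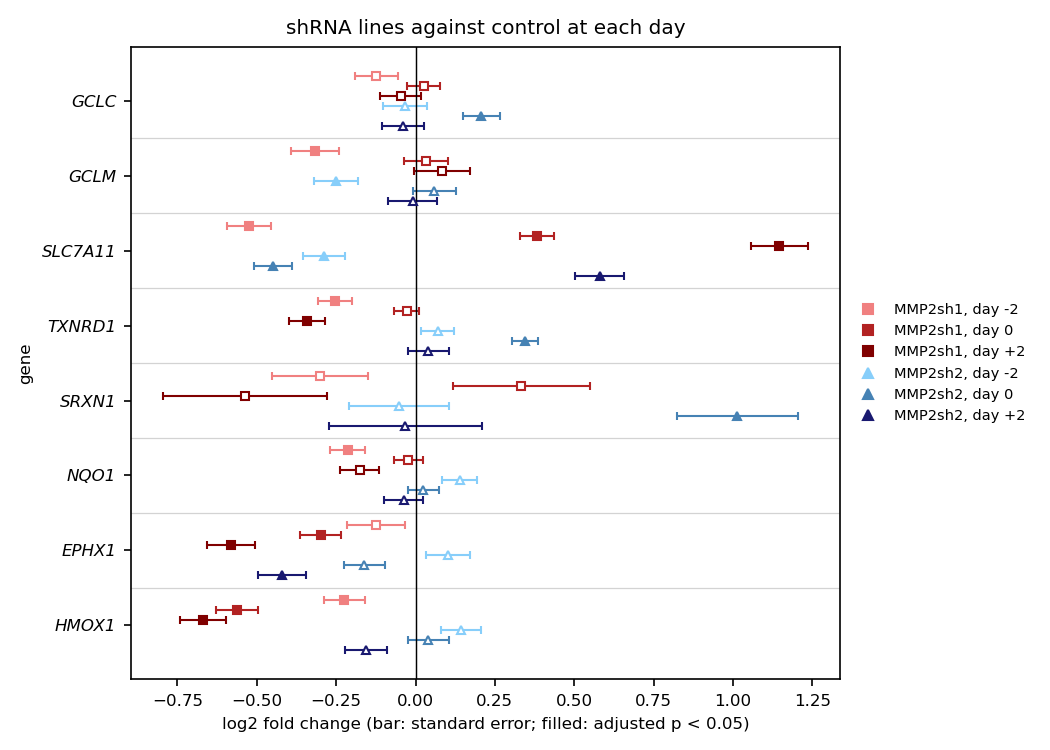
Log2 fold change of each shRNA line against the control (x axis) at days −2, 0 and +2 (light to dark) for 8 genes (y axis), MMP2sh1 in red squares and MMP2sh2 in blue triangles. Bars are standard errors and filled symbols mark an adjusted p under 0.05. SLC7A11 runs from −0.52 to 1.15 in MMP2sh1, and the called HMOX1 values are those of MMP2sh1 (−0.22 to −0.67). AKR1C1 is left out because its errors are too wide for the scale.

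The first group of genes makes glutathione. SLC7A11 is the cystine-importing subunit of the transporter that supplies its cysteine. SLC7A11 was at 55.2, 53.3 and 52.2 CPM at day −2, 70.3, 70.0 and 64.2 at day 0 and 54.9, 43.9 and 40.8 at day +2 in the control. SLC7A11 in MMP2sh1 was at 34.7, 38.5 and 38.5 CPM at day −2, 87.0, 93.6 and 86.7 at day 0 and 90.5, 99.6 and 119 at day +2. SLC7A11 in MMP2sh2 was at 42.6, 42.8 and 46.8 CPM at day −2, 50.7, 48.9 and 51.7 at day 0 and 64.6, 70.0 and 74.2 at day +2. At every day the 3 libraries of each shRNA line lay wholly above or wholly below the control, below at day −2 and above at day +2 in both lines, and at day 0 above in MMP2sh1 and below in MMP2sh2. The log2 fold change of SLC7A11 in MMP2sh1 against control was −0.52 ± 0.07 (adjusted p = 1.0e-05) at day −2, 0.38 ± 0.05 (adjusted p = 2.2e-06) at day 0 and 1.15 ± 0.09 (adjusted p = 1.1e-10) at day +2, 2.21-fold higher at the last. In MMP2sh2 the log2 fold change was −0.29 ± 0.07 (adjusted p = 0.0064), −0.45 ± 0.06 (adjusted p = 8.4e-07) and 0.58 ± 0.08 (adjusted p = 6.1e-07) at the same days, 1.50-fold higher at day +2. Without control replicate 1, the MMP2sh2 call at day −2 was lost (adjusted p = 0.065).

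Within each line, SLC7A11 rose 2.76-fold from day −2 to day +2 in MMP2sh1 (log2 1.46 ± 0.09, adjusted p = 7.7e-13) and 1.59-fold in MMP2sh2 (log2 0.67 ± 0.07, adjusted p = 2.5e-09). In the control it was lower at day +2, by 0.20 on the log2 scale (standard error 0.08, adjusted p = 0.030), with overlapping libraries, and this call was lost without control day −2 replicate 1 (adjusted p = 0.10), control day +2 replicate 2 (0.14) or control day +2 replicate 3 (0.23). The day-by-line interaction (the log2 change from day −2 to day +2 in an shRNA line minus that in the control) was 1.67 ± 0.13 (adjusted p = 2.2e-10) for MMP2sh1 and 0.86 ± 0.11 (adjusted p = 3.5e-06) for MMP2sh2. The shRNA lines also differed from each other, MMP2sh1 being 1.78-fold higher at day 0 (log2 0.84 ± 0.05, adjusted p = 8.0e-14) and 1.48-fold higher at day +2 (log2 0.56 ± 0.08, adjusted p = 3.4e-05). Their difference at day −2 (log2 −0.24, standard error 0.08, adjusted p = 0.048) was not called when any of the 6 libraries was left out (adjusted p = 0.053 to 0.19).

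GCLC and GCLM are the catalytic and the modifier subunit of glutamate-cysteine ligase, the rate-limiting enzyme of glutathione synthesis. GCLC was at 63.6, 59.2 and 61.4 CPM at day −2, 69.0, 66.1 and 66.0 at day 0 and 57.0, 53.2 and 52.7 at day +2 in the control. GCLC in MMP2sh1 was at 60.2, 57.6 and 51.4 CPM at day −2, 66.5, 71.0 and 67.8 at day 0 and 52.1, 52.9 and 52.9 at day +2. GCLC in MMP2sh2 was at 66.1, 59.0 and 55.4 CPM at day −2, 83.3, 71.4 and 79.8 at day 0 and 52.8, 51.9 and 53.9 at day +2. The lines overlapped at days −2 and +2, and at day 0 the MMP2sh2 libraries lay above the control. The log2 fold change of GCLC at day 0 was 0.21 ± 0.06 (adjusted p = 0.013) in MMP2sh2, and the call was lost without control replicate 3 (adjusted p = 0.053), MMP2sh2 replicate 1 (0.14) or MMP2sh2 replicate 3 (0.058). The other 5 comparisons of GCLC with the control gave log2 fold changes of −0.12 to 0.03, with approximate 95% intervals (1.96 standard errors) between −0.26 and 0.13. GCLC was lower at day +2 than at day −2 in the control (log2 −0.17 ± 0.06, adjusted p = 0.014) and in MMP2sh2 (log2 −0.18 ± 0.07, adjusted p = 0.036). The control call was lost without control day −2 replicate 1 (adjusted p = 0.078), control day +2 replicate 2 (0.056) or control day +2 replicate 3 (0.056). The call in MMP2sh2 was lost without MMP2sh2 day −2 replicate 1 (adjusted p = 0.17), MMP2sh2 day −2 replicate 2 (0.052), MMP2sh2 day +2 replicate 1 (0.094) or MMP2sh2 day +2 replicate 2 (0.11).

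GCLM was at 51.9, 46.0 and 52.2 CPM at day −2, 42.8, 38.5 and 38.9 at day 0 and 31.0, 30.7 and 28.6 at day +2 in the control. GCLM in MMP2sh1 was at 44.2, 39.0 and 37.2 CPM at day −2, 42.4, 43.6 and 37.0 at day 0 and 26.9, 33.0 and 35.9 at day +2. GCLM in MMP2sh2 was at 42.1, 43.1 and 41.2 CPM at day −2, 42.8, 40.2 and 43.5 at day 0 and 29.8, 28.8 and 31.0 at day +2. Before confluence the libraries of both shRNA lines lay below the control, and at days 0 and +2 all 3 lines overlapped. The log2 fold change of GCLM at day −2 was −0.32 ± 0.08 (adjusted p = 0.0061) in MMP2sh1 and −0.25 ± 0.07 (adjusted p = 0.020) in MMP2sh2. The MMP2sh2 call was lost without control replicate 1 (adjusted p = 0.14), control replicate 3 (0.10) or MMP2sh2 replicate 1 (0.052). From day −2 to day +2 GCLM fell 1.66-fold in the control (log2 −0.73 ± 0.07, adjusted p = 7.5e-10), 1.26-fold in MMP2sh1 (log2 −0.33 ± 0.10, adjusted p = 0.0049) and 1.40-fold in MMP2sh2 (log2 −0.49 ± 0.08, adjusted p = 2.3e-06). The fall was smaller in MMP2sh1 by the interaction (log2 0.40 ± 0.12, adjusted p = 0.042), which 8 of 12 fits that left out 1 library did not call. The call was lost without control day −2 replicate 1 (adjusted p = 0.14), control day −2 replicate 3 (0.10), control day +2 replicate 2 (0.074), control day +2 replicate 3 (0.12), MMP2sh1 day −2 replicate 2 (0.11), MMP2sh1 day −2 replicate 3 (0.14), MMP2sh1 day +2 replicate 2 (0.10) or MMP2sh1 day +2 replicate 3 (0.16).

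The other subunit of the cystine transporter, SLC3A2, and CHAC1, an enzyme that degrades glutathione, were among the 16 other glutathione genes listed. Of these 16, 6 rose and 7 fell over the expansion of the control, where 56.8% of all genes were called. At day +2, 5 were higher and 4 lower in MMP2sh1 than in the control (14.8% of all genes called), and 3 higher and 3 lower in MMP2sh2 (6.32%). SLC3A2 was at 238, 254 and 237 CPM at day −2, 163, 170.2 and 181 at day 0 and 192, 195 and 196 at day +2 in the control. SLC3A2 in MMP2sh1 was at 254, 277 and 264 CPM at day −2, 194, 206 and 212 at day 0 and 257, 240.2 and 259 at day +2. SLC3A2 in MMP2sh2 was at 249, 270.4 and 282 CPM at day −2, 173, 192 and 178 at day 0 and 233, 243 and 228 at day +2. At day +2 both shRNA lines lay above the control, with log2 fold changes of SLC3A2 of 0.37 ± 0.05 (adjusted p = 4.7e-06) in MMP2sh1 and 0.27 ± 0.05 (adjusted p = 3.1e-04) in MMP2sh2. CHAC1 at day +2 was at 7.12, 7.06 and 5.59 CPM in the control, 15.5, 12.8 and 17.5 CPM in MMP2sh1 and 16.3, 13.9 and 13.2 CPM in MMP2sh2. The log2 fold changes of CHAC1 at that day were 1.21 ± 0.13 (adjusted p = 5.0e-08) and 1.13 ± 0.12 (adjusted p = 8.8e-09). Its interaction terms were 1.40 ± 0.20 (adjusted p = 2.5e-05) for MMP2sh1 and 0.85 ± 0.18 (adjusted p = 0.0034) for MMP2sh2. At day −2 CHAC1 did not pass the test in either line (log2 fold changes −0.19 and 0.28).

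**Figure D4:**
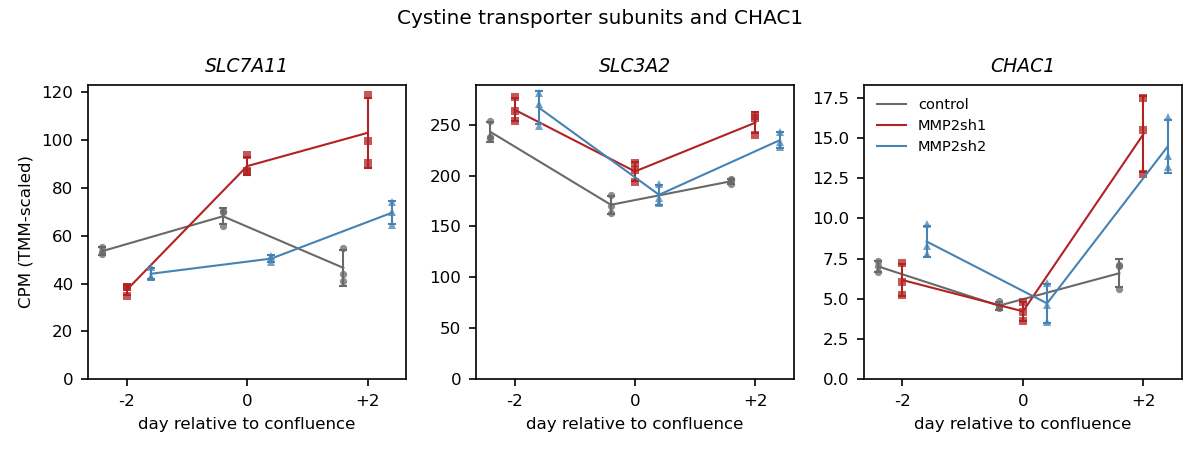
Level (y axis, CPM with TMM scaling, from 0) of SLC7A11, SLC3A2 and CHAC1 at days −2, 0 and +2 (x axis) in the control (grey circles), MMP2sh1 (red squares) and MMP2sh2 (blue triangles). Points are single libraries and bars are the mean with its SD, n = 3. At day +2 the 3 libraries of each shRNA line lie above the control for all 3 genes.

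The second group recycles thioredoxin and peroxiredoxin. TXNRD1 is the cytosolic thioredoxin reductase, which passes electrons from NADPH to thioredoxin. TXNRD1 was at 299, 304 and 290.4 CPM at day −2, 235, 236 and 227 at day 0 and 101, 102 and 102 at day +2 in the control. TXNRD1 in MMP2sh1 was at 261, 254 and 235 CPM at day −2, 234, 229 and 223.3 at day 0 and 82.4, 78.7 and 79.7 at day +2. TXNRD1 in MMP2sh2 was at 317, 327 and 297 CPM at day −2, 301, 296 and 299 at day 0 and 104, 93.3 and 116 at day +2. Every day +2 library lay below every library of the earlier days, in all 3 lines. TXNRD1 fell 2.92-fold from day −2 to day +2 in the control (log2 −1.55 ± 0.05, adjusted p = 4.3e-20), 3.12-fold in MMP2sh1 (log2 −1.64 ± 0.06, adjusted p = 3.7e-16) and 2.99-fold in MMP2sh2 (log2 −1.58 ± 0.07, adjusted p = 6.4e-19). The interaction terms of −0.09 for MMP2sh1 and −0.03 for MMP2sh2 did not pass the test, with approximate 95% intervals of −0.23 to 0.06 and −0.20 to 0.13. Against control, TXNRD1 was lower in MMP2sh1 at day −2 (log2 −0.25 ± 0.05, adjusted p = 0.0024) and at day +2 (log2 −0.34 ± 0.06, adjusted p = 6.7e-05). In MMP2sh2 it was higher at day 0, 1.27-fold (log2 0.34 ± 0.04, adjusted p = 1.1e-07). MMP2sh1 was below MMP2sh2 at all 3 days, with log2 fold changes of −0.33, −0.37 and −0.38 (adjusted p = 6.0e-04, 2.2e-09 and 6.9e-04).

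SRXN1, sulfiredoxin, restores peroxiredoxins that were overoxidized. SRXN1 was at 7.08, 7.34 and 5.94 CPM at day −2, 2.75, 2.13 and 2.95 at day 0 and 2.07, 2.97 and 2.27 at day +2 in the control. SRXN1 in MMP2sh1 was at 6.25, 5.28 and 5.05 CPM at day −2, 2.61, 3.84 and 3.47 at day 0 and 1.84, 1.66 and 1.56 at day +2. SRXN1 in MMP2sh2 was at 7.27, 5.04 and 7.50 CPM at day −2, 5.40, 4.92 and 5.61 at day 0 and 2.97, 2.09 and 2.10 at day +2. At day 0 the MMP2sh2 libraries overlapped those of day −2 and lay above those of the control and of MMP2sh1. SRXN1 fell 2.77-fold over the expansion in the control (log2 −1.47 ± 0.18, adjusted p = 9.4e-08), 3.28-fold in MMP2sh1 (log2 −1.71 ± 0.21, adjusted p = 3.0e-07) and 2.74-fold in MMP2sh2 (log2 −1.46 ± 0.20, adjusted p = 2.8e-07). At day 0, SRXN1 was 2.02-fold higher in MMP2sh2 than in the control (log2 1.01 ± 0.19, adjusted p = 2.6e-04), from 99 to 212 reads per library in these groups. In MMP2sh1 at day 0 its log2 fold change of 0.33 (standard error 0.22, adjusted p = 0.33) did not pass the test. MMP2sh1 was below MMP2sh2 at that day (log2 −0.68, standard error 0.18, adjusted p = 0.0053), a call lost without MMP2sh1 replicate 1 (adjusted p = 0.058).

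The third group detoxifies. NQO1 reduces quinones, EPHX1 is the microsomal epoxide hydrolase and AKR1C1 is an aldo-keto reductase. NQO1 was at 118, 121 and 116 CPM at day −2, 112, 104 and 110.0 at day 0 and 84.0, 92.2 and 89.5 at day +2 in the control. NQO1 in MMP2sh1 was at 101, 100.4 and 105 CPM at day −2, 105, 108 and 108 at day 0 and 81.2, 74.6 and 80.0 at day +2. NQO1 in MMP2sh2 was at 126, 132 and 134 CPM at day −2, 109, 114 and 112 at day 0 and 81.5, 89.6 and 88.1 at day +2. At day −2 the order was MMP2sh1, control and MMP2sh2 with no overlap, while at day 0 the control overlapped both shRNA lines. Libraries at day −2 were likewise separate from the control's for 28.5% of all genes tested in MMP2sh1 and 28.6% in MMP2sh2. The day −2 value of NQO1 in MMP2sh2 against control (log2 0.14, standard error 0.05, adjusted p = 0.10) did not pass the test. With DESeq2 that value passed (adjusted p = 0.035). NQO1 fell 1.33-fold from day −2 to day +2 in the control (log2 −0.41 ± 0.05, adjusted p = 1.3e-07), 1.30-fold in MMP2sh1 (log2 −0.38 ± 0.06, adjusted p = 2.3e-05) and 1.51-fold in MMP2sh2 (log2 −0.59 ± 0.06, adjusted p = 1.6e-09). It was lower in MMP2sh1 at day −2 (log2 −0.21 ± 0.06, adjusted p = 0.012), a call lost without control replicate 1 (adjusted p = 0.065), control replicate 2 (0.076) or MMP2sh1 replicate 2 (0.056). At day +2 in MMP2sh1 its value of −0.18 missed the threshold (standard error 0.06, adjusted p = 0.051). The libraries did not overlap, which held for 29.9% of all genes tested. The value passed without control replicate 1 (0.035) or MMP2sh1 replicate 1 (0.027). It also passed with DESeq2 (0.027), median-of-ratios scaling (0.048), at least 10 counts in every library (0.043) or a single fit of all 27 libraries (0.021). The shRNA lines differed at day −2, MMP2sh1 being 1.28-fold lower (log2 −0.36 ± 0.06, adjusted p = 2.5e-04).

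EPHX1 was at 40.8, 45.9 and 41.0 CPM at day −2, 48.7, 50.2 and 54.8 at day 0 and 43.9, 48.5 and 54.3 at day +2 in the control. EPHX1 in MMP2sh1 was at 32.2, 39.1 and 45.7 CPM at day −2, 39.6, 41.5 and 44.3 at day 0 and 33.3, 32.7 and 32.4 at day +2. EPHX1 in MMP2sh2 was at 44.1, 46.3 and 47.0 CPM at day −2, 46.2, 44.4 and 48.1 at day 0 and 37.5, 38.6 and 33.8 at day +2. The lines overlapped at day −2 and both shRNA lines lay wholly below the control at days 0 and +2. EPHX1 was lower in MMP2sh1 at day 0 (log2 −0.30 ± 0.06, adjusted p = 7.9e-04) and 1.50-fold lower at day +2 (log2 −0.58 ± 0.08, adjusted p = 1.4e-06). In MMP2sh2 it was 1.34-fold lower at day +2 (log2 −0.42 ± 0.08, adjusted p = 1.5e-04), and the day 0 value of −0.16 (standard error 0.06, adjusted p = 0.093) did not pass. At day 0 the libraries of MMP2sh2 and the control did not overlap for 28.8% of all genes tested. Over the expansion EPHX1 rose in the control (log2 0.21 ± 0.07, adjusted p = 0.017), where the libraries of the 2 days overlapped, and fell in MMP2sh1 (log2 −0.25 ± 0.10, adjusted p = 0.028) and in MMP2sh2 (log2 −0.32 ± 0.08, adjusted p = 6.9e-04). The control call was lost without control day −2 replicate 1 (adjusted p = 0.086), control day −2 replicate 3 (0.060) or control day +2 replicate 3 (0.18). The MMP2sh1 call was lost without MMP2sh1 day −2 replicate 2 (adjusted p = 0.065), MMP2sh1 day −2 replicate 3 (0.25), MMP2sh1 day +2 replicate 2 (0.068) or MMP2sh1 day +2 replicate 3 (0.074). The interaction was −0.45 ± 0.13 (adjusted p = 0.029) for MMP2sh1 and −0.53 ± 0.11 (adjusted p = 0.0019) for MMP2sh2. The MMP2sh1 interaction was lost without control day −2 replicate 1 (adjusted p = 0.064), control day −2 replicate 3 (0.074), control day +2 replicate 2 (0.059), control day +2 replicate 3 (0.12), MMP2sh1 day −2 replicate 3 (0.096), MMP2sh1 day +2 replicate 2 (0.061) or MMP2sh1 day +2 replicate 3 (0.064).

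AKR1C1 was nearly silent, with 4 to 60 reads per library, or 0.0976 to 1.43 CPM. Its mean was 0.520 to 0.831 CPM in the control, 0.370 to 0.554 CPM in MMP2sh1 and 0.724 to 0.892 CPM in MMP2sh2, and the groups compared overlapped. None of the 16 comparisons called AKR1C1, and none had an unadjusted p under 0.05 for it, but at this depth the standard errors of 0.45 to 0.90 on the log2 scale leave changes of that size undetectable. In MMP2sh1 at day −2, replicate 2 had 42 reads and the other libraries 4 each, and without it AKR1C1 was called higher at day +2 than at day −2 (log2 2.39, adjusted p = 0.020) and lower than in MMP2sh2 at day −2 (log2 −2.79, adjusted p = 0.041). Its near-identical relative AKR1C2 had 0 to 24 reads per library and AKR1C3 had 142 to 521, and reads that fit several of these genes may be lost.

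HMOX1, heme oxygenase, breaks heme down to biliverdin, iron and carbon monoxide, and is the heme and iron gene of the set. HMOX1 was at 64.8, 66.3 and 70.4 CPM at day −2, 59.1, 51.7 and 52.8 at day 0 and 61.0, 70.0 and 72.7 at day +2 in the control. HMOX1 in MMP2sh1 was at 56.8, 55.1 and 60.5 CPM at day −2, 34.4, 38.5 and 38.5 at day 0 and 46.6, 41.9 and 39.9 at day +2. HMOX1 in MMP2sh2 was at 70.2, 72.8 and 80.2 CPM at day −2, 58.1, 60.4 and 51.5 at day 0 and 59.6, 61.2 and 62.1 at day +2. MMP2sh1 lay wholly below the other lines at each day, and MMP2sh2 overlapped the control at each day. The log2 fold change of HMOX1 in MMP2sh1 was −0.22 ± 0.06 (adjusted p = 0.022) at day −2, −0.56 ± 0.07 (adjusted p = 9.1e-08) at day 0 and −0.67 ± 0.07 (adjusted p = 6.6e-08) at day +2 against control, 1.59-fold lower at the last. The day −2 call was lost without control replicate 2 (adjusted p = 0.065), control replicate 3 (0.11) or MMP2sh1 replicate 2 (0.11). In MMP2sh2 the log2 fold changes of HMOX1 were 0.14, 0.04 and −0.16 at days −2, 0 and +2 (adjusted p = 0.16, 0.77 and 0.18), with approximate 95% intervals that reached from −0.29 to 0.27 over the 3 days. The day +2 value passed without control replicate 1 (log2 −0.23, adjusted p = 0.042). The shRNA lines differed from each other directly, HMOX1 being 1.30-fold, 1.51-fold and 1.43-fold lower in MMP2sh1 at days −2, 0 and +2 (adjusted p = 7.1e-04, 2.0e-08 and 1.8e-05).

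Over the whole expansion HMOX1 did not pass the test in the control, where a fall to day 0 was followed by a rise and the log2 fold change was 0.02 with an approximate 95% interval of −0.10 to 0.15. It fell in MMP2sh1 (log2 −0.43 ± 0.08, adjusted p = 4.5e-05) and in MMP2sh2 (log2 −0.28 ± 0.07, adjusted p = 8.5e-04). The interaction was −0.44 ± 0.10 (adjusted p = 0.0057) for MMP2sh1. For MMP2sh2 it was −0.30 and missed the threshold (standard error 0.09, adjusted p = 0.054), and it passed without control day +2 replicate 1 (0.016) or MMP2sh2 day −2 replicate 1 (0.039). The ferritin chains FTH1 and FTL, which store iron, were among 8 other heme and iron genes, of which 7 were tested over the expansion of the control, 2 rising and 3 falling, beside 56.8% of all genes called. FTL at day +2 was at 1236, 1357 and 1443 CPM in the control, 974, 916 and 944 CPM in MMP2sh1 and 1148, 1144 and 1190.0 CPM in MMP2sh2, and it was lower in both lines (log2 −0.51 ± 0.05, adjusted p = 1.2e-08 and log2 −0.21 ± 0.05, adjusted p = 0.0021). FTH1 was lower in MMP2sh1 at days 0 and +2 (log2 −0.39 ± 0.04, adjusted p = 3.3e-09 and log2 −0.32 ± 0.06, adjusted p = 3.2e-04). In MMP2sh2 FTH1 was higher at day −2 (log2 0.37 ± 0.06, adjusted p = 1.5e-04) and lower at day +2 (log2 −0.16 ± 0.05, adjusted p = 0.046).

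Comparing the shRNA lines with each other uses no control library. At day −2, 4 of the 9 genes were lower in MMP2sh1 than in MMP2sh2 and none was higher (10.7% of all genes called, 5.69% lower and 5.01% higher), namely NQO1, HMOX1, TXNRD1 and SLC7A11. The SLC7A11 call at that day was lost when any of the 6 libraries was left out (adjusted p = 0.053 to 0.19). At day 0, 4 were lower (HMOX1, GCLC, TXNRD1 and SRXN1) and SLC7A11 was higher (18.5%, 9.62% lower and 8.90% higher). Without MMP2sh1 replicate 1, 3 were called at that day. The GCLC difference at day 0 (log2 −0.18 ± 0.06, adjusted p = 0.022) was lost without MMP2sh1 replicate 1 (adjusted p = 0.097), MMP2sh1 replicate 3 (0.057), MMP2sh2 replicate 1 (0.18) or MMP2sh2 replicate 3 (0.072). At day +2, HMOX1 and TXNRD1 were lower and SLC7A11 was higher (7.86%, 3.27% lower and 4.59% higher). HMOX1 and TXNRD1 were thus lower in MMP2sh1 than in MMP2sh2 at all 3 days.

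The expansion response differed from the control's for 4 of the 9 genes in MMP2sh1, beside 7.40% of the 20548 genes tested (4.52% with a positive and 2.88% with a negative term). In MMP2sh2 it differed for 2, beside 4.98% of 20653 (2.71% and 2.28%). These were HMOX1, GCLM, EPHX1 and SLC7A11 in MMP2sh1, and EPHX1 and SLC7A11 in MMP2sh2. Without control day −2 replicates 1 or 3, control day +2 replicates 2 or 3, MMP2sh1 day −2 replicate 3 or MMP2sh1 day +2 replicates 2 or 3, 2 genes were called in MMP2sh1. TXNRD1, SRXN1, NQO1 and GCLC had interaction terms from −0.24 to 0.08 for MMP2sh1 and from −0.18 to 0.01 for MMP2sh2, with adjusted p of 0.58 or more in the first and 0.21 or more in the second.

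The regulators of NRF2 were measured as mRNA. NFE2L2 was at 57.6, 52.0 and 58.2 CPM at day −2, 59.6, 57.5 and 56.9 at day 0 and 65.5, 65.9 and 60.9 at day +2 in the control. At day −2 it was at 50.7, 45.8 and 46.3 CPM in MMP2sh1 and 48.2, 49.2 and 47.2 CPM in MMP2sh2, below the control libraries in both. NFE2L2 was lower at that day (log2 −0.23 ± 0.07, adjusted p = 0.026 and log2 −0.22 ± 0.07, adjusted p = 0.034), and at days 0 and +2 its log2 fold changes of −0.09 to 0.06 did not pass the test. It rose from day −2 to day +2 in the control (log2 0.20 ± 0.06, adjusted p = 0.0059), in MMP2sh1 (log2 0.34 ± 0.07, adjusted p = 4.7e-04) and in MMP2sh2 (log2 0.48 ± 0.07, adjusted p = 6.5e-07). Of its exonic bases, 5747 of 14975 are shared with other genes. KEAP1, the inhibitor, fell over the same interval in the control (log2 −0.48 ± 0.05, adjusted p = 1.9e-08), in MMP2sh1 (log2 −0.50 ± 0.06, adjusted p = 5.1e-07) and in MMP2sh2 (log2 −0.54 ± 0.07, adjusted p = 3.7e-08). Against control, KEAP1 was not called in any of the 6 comparisons (log2 −0.10 to 0.10).

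Of 14 regulators, 9 were called over the expansion of the control, 3 higher and 6 lower, a share near the 56.8% of all genes called. MAFK, a small MAF partner of NRF2, was at 45.3, 49.2 and 43.9 CPM at day −2, 23.0, 20.9 and 25.6 at day 0 and 18.7, 24.9 and 19.5 at day +2 in the control. MAFK in MMP2sh1 was at 37.5, 38.8 and 42.1 CPM at day −2, 31.0, 36.2 and 32.7 at day 0 and 31.0, 28.0 and 21.8 at day +2. MAFK in MMP2sh2 was at 42.1, 39.9 and 46.3 CPM at day −2, 38.8, 41.3 and 34.3 at day 0 and 27.4, 28.4 and 25.4 at day +2. At day 0 the MAFK libraries of both shRNA lines lay wholly above the control's. The log2 fold change of MAFK at day 0 was 0.52 ± 0.08 (adjusted p = 1.1e-05) in MMP2sh1 and 0.70 ± 0.08 (adjusted p = 5.9e-08) in MMP2sh2, and its interaction terms were 0.58 ± 0.14 (adjusted p = 0.011) and 0.47 ± 0.12 (adjusted p = 0.019). BACH1, the competing repressor, was lower at day −2 in MMP2sh1 (log2 −0.32 ± 0.07, adjusted p = 0.0041) and in MMP2sh2 (log2 −0.23 ± 0.06, adjusted p = 0.015). SQSTM1, which binds KEAP1 and can sequester it, was lower in MMP2sh1 at day +2 (log2 −0.25 ± 0.05, adjusted p = 0.0016) and higher in MMP2sh2 at day 0 (log2 0.26 ± 0.04, adjusted p = 2.9e-05).

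NADPH is consumed by TXNRD1 and NQO1. Of 9 other genes listed for its supply, 8 were lower and 1 higher at day +2 in the control (28.6% of all genes lower and 28.1% higher), with a list median of −0.69 on the log2 scale against 0.03 for all genes. The malic enzymes ME1 (log2 −1.26 ± 0.08, adjusted p = 7.3e-14) and ME2 (log2 −1.06 ± 0.06, adjusted p = 3.8e-14) fell in the control. In MMP2sh1, TALDO1, a transaldolase, was lower than in the control at all 3 days (log2 −0.31 ± 0.06, adjusted p = 9.1e-04, log2 −0.40 ± 0.05, adjusted p = 2.4e-07 and log2 −0.43 ± 0.06, adjusted p = 6.3e-06). MTHFD2, a mitochondrial folate enzyme, was lower in MMP2sh1 at day −2 (log2 −0.35 ± 0.05, adjusted p = 6.0e-05) and higher at day +2 in MMP2sh1 (log2 0.34 ± 0.07, adjusted p = 4.6e-04) and in MMP2sh2 (log2 0.33 ± 0.07, adjusted p = 8.2e-04).

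Of 14 thioredoxin and peroxiredoxin genes, 3 were higher and 8 lower at day +2 than at day −2 in the control (56.8% of all genes called), with a list median of −0.25 against 0.03 for all genes. In each shRNA line 2 were higher and 8 lower, beside 54.9% of all genes called in MMP2sh1 and 54.7% in MMP2sh2. TXNIP, an inhibitor of thioredoxin, rose most, from 2.53, 3.12 and 4.77 CPM at day −2 to 40.7, 42.6 and 38.9 CPM at day +2 in the control. It ended at 25.3, 22.6 and 23.5 CPM in MMP2sh1 and 27.9, 25.0 and 28.8 CPM in MMP2sh2, below all control libraries. TXNIP was lower at day +2 in both lines (log2 −0.78 ± 0.08, adjusted p = 8.1e-09 and log2 −0.58 ± 0.08, adjusted p = 5.3e-07), and TXNRD2, the mitochondrial reductase, was higher (log2 0.51 ± 0.06, adjusted p = 2.7e-07 and log2 0.44 ± 0.06, adjusted p = 4.8e-07). PRDX1, a cytosolic peroxiredoxin, fell with the expansion in the control (log2 −1.19 ± 0.05, adjusted p = 9.5e-17), in MMP2sh1 (log2 −1.31 ± 0.06, adjusted p = 2.0e-14) and in MMP2sh2 (log2 −1.22 ± 0.05, adjusted p = 1.8e-18).

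Among 35 other detoxification, conjugation and export genes, 32 passed the filter in the control's expansion, of which 10 rose and 12 fell, beside 28.1% and 28.6% of all genes (list median −0.03 against 0.03). ABCC3, an exporter of glucuronide conjugates, rose in the control (log2 1.52 ± 0.07, adjusted p = 3.3e-16), in MMP2sh1 (log2 2.06 ± 0.12, adjusted p = 1.3e-12) and in MMP2sh2 (log2 1.59 ± 0.08, adjusted p = 3.1e-17). TRIM16L fell in the control (log2 −1.37 ± 0.08, adjusted p = 2.7e-14) and was lower in MMP2sh1 than in the control at all 3 days (log2 −0.51 ± 0.08, adjusted p = 5.5e-05, log2 −0.25 ± 0.07, adjusted p = 0.0079 and log2 −0.63 ± 0.11, adjusted p = 6.8e-05), although it shares sequence with TRIM16, so that their counts may be mixed. Of the 4 genes for superoxide dismutases and catalase, 2 rose and 2 fell in the control, where 56.8% of all genes were called, and SOD1, the cytosolic dismutase, fell (log2 −0.71 ± 0.05, adjusted p = 1.5e-12).

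The 9 genes did not follow a single pattern. Over the 9 group means, which share libraries with every comparison above, Pearson's r was 0.95 between NQO1 and TXNRD1, 0.93 between GCLM and TXNRD1 and 0.88 between TXNRD1 and SRXN1. SLC7A11 had a negative r with 7 of the other 8 genes, from −0.78 with HMOX1 and −0.69 with SRXN1 to −0.035 with GCLC. Of 11739 genes, TRIM16L had the pattern most like NQO1 (r = 0.981), KIAA1432 that most like TXNRD1 (0.998), RNF126 that most like SRXN1 (0.982) and SGK1 that most like EPHX1 (0.962). PFDN4 was most like GCLC (0.962), LL22NC03-N64E9.1 most like GCLM (0.997), MRPL34 most like HMOX1 (0.960) and CTB-89H12.4 most like SLC7A11 (0.941). With AKR1C1 it was CD9 (0.958), from counts near the limit of detection. These values describe likeness over 9 points, the largest of 11739, and carry no test.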

How the data were processed

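The authors extracted poly(A) RNA, sequenced it as paired-end libraries, trimmed reads with Trim Galore (version 0.6.0), mapped them with STAR (2.7.3a) on hg19 and counted them per gene with HTSeq (2.0.0), over exons, without strand and discarding ambiguous reads. The annotation version is not given in the sources used here. What the authors deposited is 1 table of raw counts per library, by gene symbol, and HTSeq's summary lines (16.8% to 19.1% of each library) were left out. In R 4.3.3, edgeR 4.0.16 was used with TMM scaling, filterByExpr (minimum count 10, total 15) and quasi-likelihood tests over all genes, with Benjamini-Hochberg adjustment and a threshold of 0.05. Each comparison was fitted on its own libraries. The standard error was the log2 fold change divided by the square root of F, and approximate intervals used 1.96 standard errors. CPM is the count per 1000000 of the TMM-scaled total.

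The 9 genes and the companion lists were chosen with earlier results of these data known. Of each list, up to 3 called genes per comparison with the largest change and a mean of at least 5 CPM could be named, besides NFE2L2, KEAP1 and MMP2. Likeness used log2(CPM + 0.5) group means. The tests were checked on simulated counts in which 200 genes changed 2-fold. Of these, edgeR called 83.5% in the setting of MMP2sh1 against control at day +2 and 73.5% in that of the MMP2sh1 interaction. Smaller changes were not simulated. Alternatives were DESeq2 1.42.0, other scaling, filters and fits, a replicate block, and each library left out. The labels do not say that libraries of a group are separate cultures, and where they are not, the p-values measure technical spread. Sequences and positions were read from GRCh37 with the GENCODE annotation.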

Additional observations from a re-analysis of the deposited data

Results flagged for a closer look

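For 4 genes the change from day −2 to day +2 in an shRNA line differed from that in the control by the test of the day-by-line interaction, over 3 libraries in each of the 4 groups. For SLC7A11 the interaction was 1.67 on the log2 scale in MMP2sh1 (adjusted p = 2.2e-10) and 0.86 in MMP2sh2 (adjusted p = 3.5e-06), with the control lower and both shRNA lines higher at day +2. For EPHX1 it was −0.45 in MMP2sh1 (adjusted p = 0.029) and −0.53 in MMP2sh2 (adjusted p = 0.0019), with the control higher and both shRNA lines lower at day +2. For HMOX1 it was −0.44 in MMP2sh1 (adjusted p = 0.0057), where the control gave 0.02 and MMP2sh1 −0.43. In MMP2sh2 the HMOX1 interaction was also negative but missed the threshold with edgeR. It passed under some alternative settings, DESeq2 among them (log2 −0.32, adjusted p = 0.022). For GCLM the interaction was 0.40 in MMP2sh1 (adjusted p = 0.042), where GCLM fell by 0.73 on the log2 scale in the control and by 0.33 in MMP2sh1. Leaving out 1 library at a time, the GCLM call was lost in 8 of 12 fits and the EPHX1 call in MMP2sh1 in 7 of 12. The changes of SLC7A11 and of EPHX1 within the control were each called in 3 of 6 such fits. Both shRNA lines were set against the same control libraries, so the interactions of a gene in MMP2sh1 and MMP2sh2 are not independent.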

How the results depend on the processing

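Of the counts of called genes, those that moved by over 1.5 times did so when 1 library was left out. The number of the 9 genes called then ranged over 3 to 5 (MMP2sh1 against control at day −2), 0 to 2 (MMP2sh2 against control at day −2), 4 to 7 (control from day −2 to +2), 3 to 5 (MMP2sh1 against MMP2sh2 at day 0) and 2 to 4 (the MMP2sh1 interaction). The number of all genes called ranged over 1321 to 2274 (MMP2sh1 against control at day −2), 728 to 1743 (MMP2sh2 against control at day −2), 1509 to 2257 (MMP2sh2 against control at day 0), 679 to 1440 (MMP2sh2 against control at day +2), 1208 to 1946 (MMP2sh1 against MMP2sh2 at day −2), 885 to 1625 (MMP2sh1 against MMP2sh2 at day +2), 934 to 1682 (the MMP2sh1 interaction) and 541 to 1214 (the MMP2sh2 interaction). Values of single genes that changed sign were uncalled with all libraries, and the cause was not tested. The log2 values of NQO1 ran over −0.050 to 0.00079 (MMP2sh1 against control at day 0), −0.0037 to 0.047 (MMP2sh2 against control at day 0) and −0.072 to 0.0037 (MMP2sh2 against control at day +2). For GCLM they ran over −0.0085 to 0.10 (MMP2sh1 against control at day 0), −0.0096 to 0.20 (MMP2sh1 against control at day +2), −0.045 to 0.019 (MMP2sh2 against control at day +2), −0.070 to 0.041 (MMP2sh1 against MMP2sh2 at day 0) and −0.0020 to 0.20 (MMP2sh1 against MMP2sh2 at day +2). Those of AKR1C1 ran over −0.49 to 0.15 (MMP2sh1 against control at day +2), −0.14 to 0.79 (MMP2sh2 against control at day −2), −0.51 to 0.074 (MMP2sh2 against control at day 0), −0.22 to 0.91 (MMP2sh2 from day −2 to +2), −0.060 to 2.24 (the MMP2sh1 interaction) and −0.35 to 0.77 (the MMP2sh2 interaction). For GCLC the values ran over −0.10 to 0.024 (MMP2sh2 against control at day −2), −0.023 to 0.0049 (MMP2sh1 against MMP2sh2 at day +2), −0.0044 to 0.13 (the MMP2sh1 interaction) and −0.063 to 0.065 (the MMP2sh2 interaction). Those of SRXN1 ran over −0.15 to 0.12 (MMP2sh2 against control at day −2), −0.22 to 0.13 (MMP2sh2 against control at day +2), −0.23 to 0.032 (control from day 0 to +2) and −0.16 to 0.19 (the MMP2sh2 interaction). HMOX1 ran over −0.0080 to 0.10 (MMP2sh2 against control at day 0) and −0.030 to 0.093 (control from day −2 to +2). TXNRD1 ran over −0.041 to 0.12 (MMP2sh2 against control at day +2) and −0.12 to 0.045 (the MMP2sh2 interaction). EPHX1 ran over −0.12 to 0.029 (control from day 0 to +2).

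Of the 144 values of single genes, or fewer where a fit gave no value, DESeq2 called 4 more and dropped none, median-of-ratios scaling called 2 more, and a single fit of all 27 libraries called 1 more. NQO1 in MMP2sh1 at day +2 was among the gains of each of these 3, and of that under the stricter filter on low counts. The absence of a filter added 1 call and lost SLC7A11 of MMP2sh1 against MMP2sh2 at day −2 (adjusted p = 0.055), and at least 10 counts in every library added 3. The HMOX1 interaction in MMP2sh2, which missed the threshold, passed it with DESeq2 (adjusted p = 0.022), median-of-ratios scaling (0.046), no filter (0.045), at least 10 counts in every library (0.047) and the replicate block (0.049). The uncalled SRXN1 interaction in MMP2sh2 changed sign with DESeq2 (−0.0029), with median-of-ratios scaling (−0.0022) and with a replicate block (−0.0015), and that of GCLC did with at least 10 counts in every library (0.0054).

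With the replicate number as a block, 139 of these values kept their direction and call, 2 gained a call (EPHX1 of MMP2sh1 against MMP2sh2 at day −2 and the HMOX1 interaction in MMP2sh2), and 2 lost it (GCLC over the expansion of MMP2sh2, adjusted p = 0.072, and the GCLM interaction in MMP2sh1, adjusted p = 0.059). The numbers were not treated as pairs, because the deviations of libraries with the same number correlated by −0.22 to 0.30 and in no comparison were all 3 correlations above 0.1. Libraries with the same number were not each other's best match in every case in any comparison. Depth limited AKR1C1 (4 to 60 reads per library) most and SRXN1 (65 to 409 reads) next.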

Other observations

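The following genes of the companion lists were not described above. GLRX, a glutaredoxin, rose by 1.20 on the log2 scale from day −2 to day +2 in the control, 1.42 in MMP2sh1 and 1.42 in MMP2sh2. SESN3, a sestrin, rose by 1.80, 1.82 and 1.80 in the same lines. Over this interval 56.8%, 54.9% and 54.7% of all genes were called. HMOX2, the constitutive heme oxygenase, fell by 1.00, 1.09 and 1.07, and TKT, a transketolase, fell by 0.97, 1.08 and 1.10. GSR, glutathione reductase, was lower than in the control in MMP2sh1 at days −2, 0 and +2, with log2 fold changes of −0.20, −0.20 and −0.34. These genes passed edgeR's quasi-likelihood test in each comparison named.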
